A study of Mus musculus with 12 samples.

Results

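The genomic landscapes of 8 genes that respond to FGF signaling were examined for β-catenin binding and H3K27 acetylation in mouse forelimb buds. The genes were Spry1, Spry2, Spry4, Dusp6, Etv4, Etv5, Spred1 and Spred2, among 21911 protein-coding genes of the annotation. Every peak summit within 100 kb of one of these gene bodies (mm10) was taken, which gave 642 of the 268431 summits in the 12 deposited peak lists.

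Wild-type Swiss Albino embryos were exposed at E10.5 to C59 or to its solvent DMSO by injection, and forelimb buds were collected after 6 h. C59 inhibits Porcupine, the enzyme that WNT ligands need for secretion, and the DMSO-treated buds were the wild-type controls. For each antibody and treatment there were 2 replicate libraries, each made from pooled buds of several embryos, and 1 consensus list that the authors called on both replicates together. A replicate thus shows the spread between pools and not between single embryos, and in whole buds fewer bound cells and less binding per cell cannot be told apart.

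Limb bud mesenchyme receives FGFs from the apical ectodermal ridge, and FGF receptors pass the signal on through Ras, Raf and ERK. Sprouty and Spred proteins and the phosphatase Dusp6 are induced by this cascade and restrain it, whereas Etv4 and Etv5 are ETS transcription factors that carry out part of the response. β-Catenin is the nuclear effector of canonical WNT signaling and is brought to DNA by TCF/LEF factors, and H3K27ac marks active promoters and enhancers.

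The depth was inferred from the fold enrichment and p-value of each row. It amounted to 2.93 to 3.42 Gb of fragments per β-catenin library and 5.03 to 5.93 Gb per H3K27ac library. Of β-catenin summits, 20203 and 25836 were listed for the DMSO libraries and 330 and 358 for the C59 libraries. The weakest listed row had a −log10 p of 3.79 to 3.89 in the control lists and of 5.69 to 5.72 in the C59 lists, so that a weak summit had to pass a stricter limit after C59 treatment. All 5 promoters of the limb mesenchyme list (Prrx1, Prrx2, Twist1, Msx1, Hand2) and the forelimb gene Tbx5 had H3K27ac in all 4 libraries. Of the hindlimb genes, Tbx4 was marked in all 4 libraries and Pitx1 in none. Of the blood markers 3 of 4, of the neural and crest markers 3 of 3 and of the liver markers 2 of 2 had no promoter summit in any library. Ectoderm and apical ridge markers had H3K27ac in all 4 libraries at 1 of 5 promoters, muscle precursor markers at 2 of 3 and endothelial markers at 0 of 4. No summit in any library was found at 2 of these 5, 0 of these 3 and 1 of these 4 promoters.

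Sequences under selected β-catenin summits show what lies at these sites. The search covered 200 bp centered on each summit, on both strands, for the TCF/LEF cores ATCAAAG and TTCAAAG, the ETS core CCGGAA, the AP-1 core TGANTCA and 4 further cores, CAGCTG (BHLHA15), TAATTA (Lhx2), CATAAA (Hoxa11) and AAACAG (Prdm4). No matches of different cores shared bases in these windows. The strongest summit with a TCF/LEF core is shown for each of 4 genes, on the plus strand of mm10 with the core in capitals, because these are the sites that pair a high β-catenin signal with the letters TCF/LEF factors recognize. They span chr3:37723384-37723504 (Spry1), chr14:105815836-105815956 (Spry2), chr10:99359749-99359869 (Dusp6) and chr11:101772664-101772784 (Etv4). The summit shown for Spry1 lies 885 bp from a TSS of the neighbor Gm5148.
Spry1, 83.5 kb downstream: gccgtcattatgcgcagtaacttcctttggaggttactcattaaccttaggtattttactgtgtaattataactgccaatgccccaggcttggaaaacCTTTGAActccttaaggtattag
Spry2, 80.9 kb downstream: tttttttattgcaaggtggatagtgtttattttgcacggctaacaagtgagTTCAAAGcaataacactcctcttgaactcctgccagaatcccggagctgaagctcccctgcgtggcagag
Dusp6, 96.6 kb downstream: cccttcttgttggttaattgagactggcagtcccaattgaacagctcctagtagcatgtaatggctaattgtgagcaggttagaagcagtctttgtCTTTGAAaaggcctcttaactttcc
Etv4, 12.6 kb downstream: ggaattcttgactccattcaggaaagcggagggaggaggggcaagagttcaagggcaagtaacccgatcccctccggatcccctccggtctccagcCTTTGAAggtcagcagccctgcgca

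Among the strongest consensus summits of each gene, only that of Etv4 held a TCF/LEF core. Those of Spry1, Spry2, Spry4, Dusp6, Etv5 and Spred2 held neither core, and Spred1 had no consensus summit. Those of Dusp6 and Spry2 are shown, at chr10:99299013-99299133 and chr14:105921026-105921146. The capitals mark the only searched core in the stretch shown, AAACAG on either strand.
Dusp6, 35.8 kb downstream: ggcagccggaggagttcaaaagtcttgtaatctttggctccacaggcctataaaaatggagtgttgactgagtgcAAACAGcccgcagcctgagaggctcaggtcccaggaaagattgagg
Spry2, 24.3 kb upstream: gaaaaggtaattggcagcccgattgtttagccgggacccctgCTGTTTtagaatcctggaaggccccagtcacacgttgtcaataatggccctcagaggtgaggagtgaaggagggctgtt

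In wild-type controls, β-catenin occupied all 8 landscapes in at least 1 library, with 52 summits in replicate 1 and 48 in replicate 2. The consensus list, which came from its own joint call, held 41. After C59 treatment, 1 summit was listed in replicate 1 and none in replicate 2 or in the consensus list. The mean was 50 ± 2.83 summits in the controls and 0.5 ± 0.707 after C59 treatment (SD, n = 2), a difference of −49.5, and the groups did not overlap. The exact two-sided permutation test gave p = 0.333, the smallest value that 2 against 2 libraries can give. Limited to rows that pass the strictest listed p-value of all 4 lists, an alternative chosen after the data were seen, the control libraries had 42 and 40 summits and the C59 libraries 1 and 0. Counts per gene were lower without overlap for 7 of the 8 genes, all but Spred1, against 82.9% of the protein-coding genes with any β-catenin summit. None of the 41 consensus summits lay inside a C59 consensus peak, and 98.9% of all control summits lay outside one. With 41 summits, a count of 0 allows a share of up to 8.57% (upper bound of the 95% Wilson interval, counting error only). As a share of its list, the 1 summit of the first C59 library amounted to 30.3 per 10000, beside 25.7 and 18.6 in the controls and 0 in the second C59 library. These shares are close to those of the whole genome, and nothing particular to the 8 genes is read from them.

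**Figure D1:**
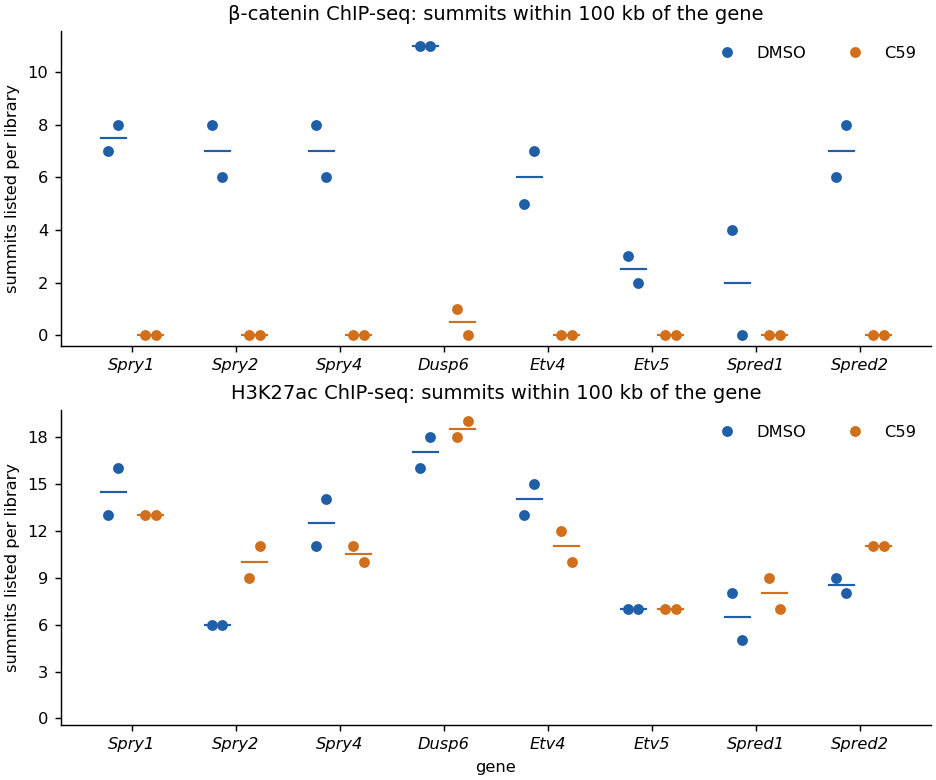
Number of summits listed within 100 kb of each gene (vertical axis) in each replicate library (points), with the group mean (line), for β-catenin (upper panel) and H3K27ac (lower panel), in DMSO controls and after C59 treatment. All β-catenin points after C59 treatment sit at 0 except 1 summit at Dusp6. H3K27ac counts range from 5 to 18 in the controls and from 7 to 19 after C59 treatment.

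The order of β-catenin density in wild-type controls was Dusp6, Spry4, Spry1, Spry2, Etv4, Spred2, Etv5 and Spred1. Per 100 kb of window the consensus list held 4.41 summits at Dusp6, 3.72 at Spry4, 2.93 at Spry1, 2.93 at Spry2, 2.32 at Etv4, 2.0 at Spred2, 0.387 at Etv5 and 0 at Spred1. The median protein-coding gene had 0.433, and 41.1% of genes had no summit in their window. Ranked among all protein-coding genes, Dusp6 stood at the 99.5th percentile, Spry4 at 99.3, Spry1 at 98.6, Spry2 at 98.5, Etv4 at 96.4, Spred2 at 95.3, Etv5 at 46.0 and Spred1 at 20.5. With raw counts of 5 to 8 and replicates that differed by 1 or 2 summits, the order among Spry1, Spry2, Spry4, Etv4 and Spred2 lies within the spread between libraries, whereas Dusp6 had more summits in both libraries than any other member. Of the 41 consensus summits, 31 had a protein-coding TSS of the same member as their nearest, and the others were nearer to neighbors such as Spata5, Gm5148, Dhx8, Meox1, Ndfip1 and Arhgap26.

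Dusp6 removes the activating phosphates from ERK and lies at chr10:99263231-99267489 on the plus strand. Its window held 11 β-catenin summits in both control libraries, 9 in the consensus list, and 1 and 0 after C59 treatment. The strongest, 35.8 kb downstream of the 5′ end in an exon of the non-coding gene B530045E10Rik, reached a fold enrichment of 16.9 and 18.7, with 105 and 131 fragments over the summit. It was stronger than 97.7% of all control summits. The single C59 summit of the 8 landscapes lay at the same site, with a fold enrichment of 5.24 and 16 fragments where 2.24 were expected, and no row was listed there in the other C59 library. The next strongest, 96.6 kb downstream in an intron of the same non-coding gene, had a fold enrichment of 15.5 and 15.8 in the controls, and none was listed there after C59 treatment. Further summits with a consensus fold enrichment of 10.1 to 10.6 lay 33.7 kb upstream, 5.8 kb downstream and 51.3 kb downstream. A weaker summit (6.23 and 4.86) lay 143 bp upstream of the transcription start. The RefSeq promoter around it (GRCm38.p6, chr10:99262981-99263230, plus strand, the part before the transcript) is shown because it carries β-catenin, with the AAACAG core in capitals on the other strand. It holds none of the other cores searched.
Dusp6 promoter: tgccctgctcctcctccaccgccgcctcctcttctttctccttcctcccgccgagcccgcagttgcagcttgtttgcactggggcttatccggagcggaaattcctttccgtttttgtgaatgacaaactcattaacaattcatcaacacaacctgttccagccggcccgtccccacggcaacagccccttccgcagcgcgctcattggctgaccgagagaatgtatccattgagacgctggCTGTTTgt

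The Sprouty genes encode inhibitors that act between the receptor and Raf. Spry1 (chr3:37639947-37644599, plus strand) had 7 and 8 β-catenin summits in the controls and none after C59 treatment. Its strongest summits lay far downstream, at 76.8 kb (11.1 and 11.6) and 83.5 kb (10.3 and 12.7), both in introns of Gm5148. They were nearer to a TSS of Gm5148 than to one of Spry1, at 7532 and 885 bp from it. The one at 83.5 kb lay within an H3K27ac region that holds a Gm5148 TSS. No consensus summit lay within 1 kb of a Spry1 TSS. Spry2 (chr14:105891947-105896819, minus strand), the only protein-coding gene in its window, had 8 and 6 summits in the controls and none after C59 treatment. The strongest lay 24.3 kb upstream in intergenic sequence (16.4 and 14.4), within an H3K27ac region. A cluster of 3 summits 512, 763 and 1015 bp upstream of its TSS was weaker, with consensus fold enrichments of 6.65, 4.47 and 3.96. Spry4 (chromosome 18, minus strand) had 8 and 6 summits in the controls and none after C59 treatment. They were led by an intergenic summit 56.8 kb downstream (13.5 and 11.1) and one 17.1 kb downstream (32 and 45 fragments over the summit). A further summit 30.3 kb upstream (8.07 and 8.19) lay within the strongest distal H3K27ac region of the gene. Its promoter carried a pair of weak summits, 159 and 248 bp upstream of the TSS (consensus 3.48 and 3.83).

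Spred1 and Spred2 encode Sprouty-related inhibitors that act on Ras. They differed from each other in these data. Spred2 (chr11:19924375-20024026, plus strand) had 6 and 8 summits in the controls and none after C59 treatment, with the strongest in an intron 62.3 kb downstream (6.05 and 8.70). A weak summit (3.19 and 3.64) lay 254 bp upstream of its TSS. Spred1 (chr2:117121071-117182279, plus strand) had 4 summits in the first control library and none in the second, so that its consensus list was empty. Those 4 summits had fold enrichments of 3.53 to 5.45. The counts of Spred1 therefore overlapped between groups, and no difference was detectable.

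Etv4 and Etv5 encode PEA3-type ETS factors. Etv4 (chr11:101769742-101785371, minus strand) had 5 and 7 summits in the controls and none after C59 treatment. Its strongest summit (13.2 and 13.4) lay inside an intron of the gene, 12.6 kb from its 5′ end and 543 bp upstream of an internal TSS. A weaker one (4.32 and 3.45) lay in a UTR of the gene, 100 bp from a TSS. Etv5 (chr16:22381309-22439719, minus strand) had 3 and 2 summits in the controls and none after C59 treatment. Its 1 consensus summit (5.17 and 5.23) lay in an intron of the gene, 923 bp from a TSS, and was stronger than 33.6% of all control summits. The strongest summit of each of Spry1, Spry2, Spry4, Dusp6 and Etv4 exceeded at least 90.4% of all control summits, and that of Spred2 73.0%. Each of these is the highest of several summits in its window set against single summits, so that a high rank is not read as stronger binding.

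**Figure D2:**
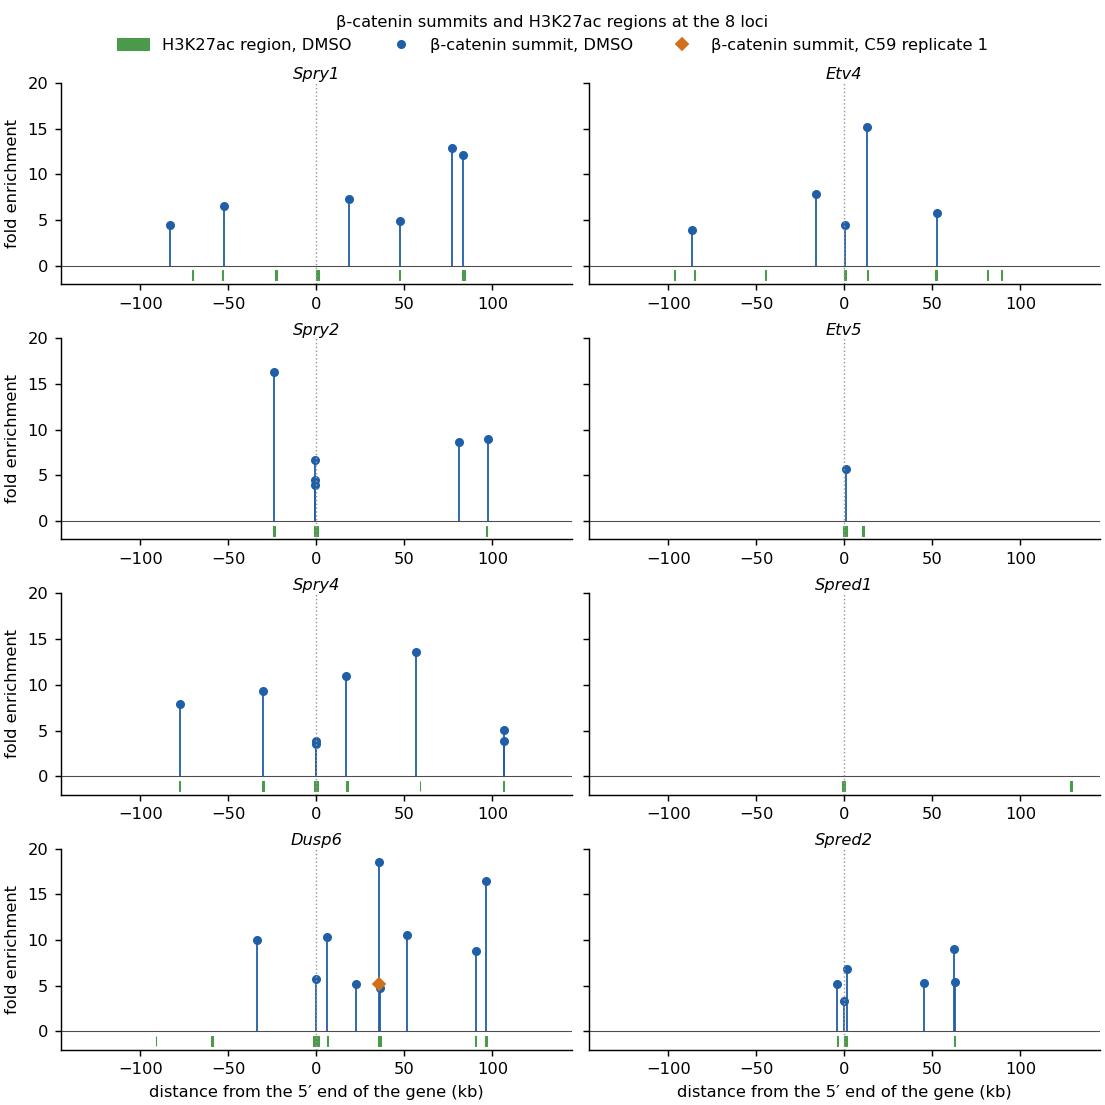
β-Catenin consensus summits of DMSO controls (blue, height is fold enrichment) and the only C59 replicate summit (orange) by distance from the 5′ end of each gene in kb, positive in the direction of transcription, with DMSO H3K27ac consensus regions drawn to scale below the line (green). The summit of 18.5 at Dusp6 is the highest, 35.8 kb downstream, Etv5 has 1 summit and Spred1 has none.

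The consensus summits of the 8 landscapes lay mostly away from promoters. Of the 41, 20 were intergenic, 15 lay in introns and 6 in exons or UTRs. Less than 1 kb from any TSS lay 15 of 41 (36.6%, 95% Wilson interval 23.6 to 51.9), beside 16.3% of all control summits, and 9 of them were within 1 kb of a TSS of the member itself. Inside an H3K27ac peak of the controls lay 18 of 41 (43.9%, 29.9 to 59), beside 22.1% of all control summits, and 18 of 41 lay inside an H3K27ac peak of C59-treated buds. Of the 23 summits outside acetylated regions, 12 were within 1 kb of one. The 41 summits lay in 36 distinct peaks, so that summits of the same peak were counted separately, which the intervals do not allow for. Members and all summits share their libraries, and these shares are given as a description. Replicates agreed in position for most sites, as 39 of 52 summits of replicate 1 lay inside a peak of replicate 2 and 38 of 48 the other way. The median fold enrichment of 6.65 was close to the 6.76 of all control summits, and 11 of the 41 (26.8%) reached 10, beside 20.4% of all.

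TCF/LEF cores were found in 6 of the 41 windows (14.6%, 6.88 to 28.4), beside 28.6% of the windows around all control summits. At a distance of 2 kb from the summits, 10 of 82 windows (12.2%) had one. All 6 matches lay within 50 bp of their summit, at Spry1, Spry2, Dusp6 (2 summits) and Etv4 (2 summits). The summits with a core had a median fold enrichment of 11.1 and those without 5.75, and 4 of the 11 summits of 10 or more held one. In summits less than 1 kb from any TSS the share was 3 of 15, beside 20.3% of all such summits. Farther away it was 3 of 26 (11.5%, 4.00 to 29.0), beside 30.2% of all such summits. In 14 windows none of the 7 searched cores was present.

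The ETS core was found in 6 of the 41 windows (14.6%), beside 5.04% of all control summits and 4.88% of the flanking windows. This core is frequent near promoters, and less than 1 kb from any TSS the share was 3 of 15, beside 16.2% of all such summits. Farther away it was 3 of 26 (11.5%, 4.00 to 29.0), beside 2.86%. The windows with this core were at Spry2, Spry4 (2 summits), Dusp6, Spred2 and Etv4, the last at the first exon of Dhx8. Those at Spry2 (chr14:105897265-105897381), Dusp6 (chr10:99353977-99354093) and Spred2 (chr11:19920303-19920403) are shown on the plus strand of mm10 with the core in capitals, since Etv4 and Etv5 belong to the family that reads it.
Spry2, 512 bp upstream: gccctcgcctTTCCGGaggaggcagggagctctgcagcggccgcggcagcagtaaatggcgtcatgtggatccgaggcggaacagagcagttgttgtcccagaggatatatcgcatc
Dusp6, 90.8 kb downstream: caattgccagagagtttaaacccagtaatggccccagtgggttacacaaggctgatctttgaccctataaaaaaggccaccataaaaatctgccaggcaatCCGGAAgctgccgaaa
Spred2, 4.0 kb upstream: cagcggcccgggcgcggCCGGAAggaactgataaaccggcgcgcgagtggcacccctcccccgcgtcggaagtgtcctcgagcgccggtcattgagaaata

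Promoter sequences of 300 bp were found in RefSeq for 6 of the 8 genes, with 7 promoters in all, and not for Spry4 and Etv4. None of the 7 held a TCF/LEF core, beside 8.65% of 32851 promoters, and 1 of the 7 (Spry2) held the ETS core, beside 14.9%. A match of these letters is not a bound site, and a missing match says only that the letters are not in the window.

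**Figure D3:**
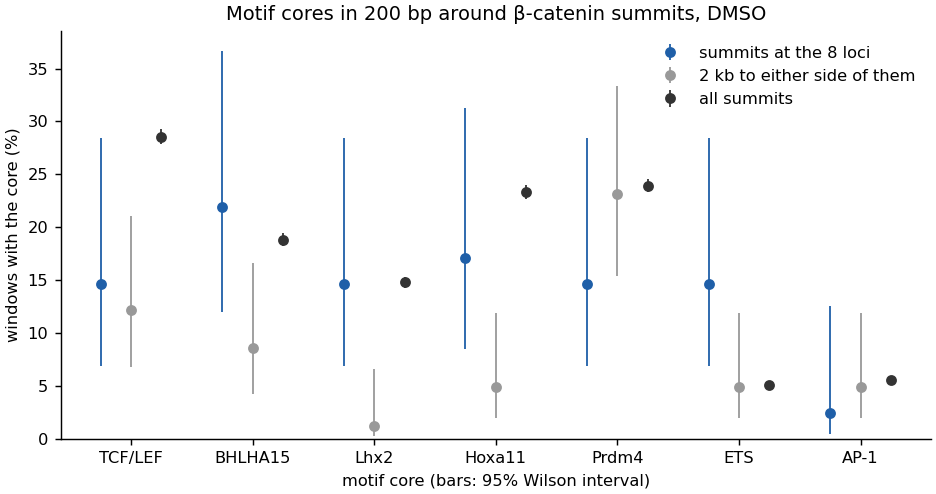
Share of 200 bp windows with each searched core (percent, with 95% Wilson intervals) around the 41 β-catenin summits of the 8 landscapes (blue), 2 kb to either side of them (gray) and around all control summits (black). The TCF/LEF core was in 14.6% of the windows at the 8 landscapes and 28.6% of all, and the ETS core in 14.6% and 5.04%.

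H3K27ac was listed at a similar number of sites in both groups. The 8 windows held 83 and 89 H3K27ac summits in the controls and 90 and 88 after C59 treatment. The difference of 3 in the mean was smaller than the spread between the control libraries (exact two-sided permutation test, p = 0.667). Of the 44 control consensus regions, 36 (81.8%, 68.0 to 90.5) overlapped a C59 region, and 36 of 40 C59 regions (90.0%, 76.9 to 96.0) overlapped a control region. The 8 control regions without a C59 region (18.2%) stand beside 13.0% of all control regions. Counts of summits did not overlap between groups for 3 genes. Etv4 was lower after C59 treatment (13 and 15 summits, then 12 and 10), beside 14.3% of all genes with any H3K27ac summit. Spry2 (6 and 6, then 9 and 11) and Spred2 (9 and 8, then 11 and 11) were higher, beside 5.72% of all genes. For each of these 3 genes the exact permutation test gave p = 0.333, the smallest possible. These calls depended on what was counted. With distinct regions in place of summits only Spry2 remained (4 and 4, then 5 and 6). The consensus lists of Spry2, however, held 7 summits in 4 regions in both groups. With a fold enrichment of at least 5 all 3 calls were lost and only Dusp6 (higher) was called. With windows of 50 kb the call of Etv4 was lost, and Spry4 (lower) and Dusp6 (higher) were called beside Spry2 and Spred2.

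The promoter of Spry1 was the only one of the 8 whose strongest H3K27ac summit, less than 1 kb from a TSS, was lower in both C59 libraries. Its fold enrichment was 8.83 and 9.52 in the controls and 7.98 and 8.27 after C59 treatment. By the same measure, Spry2 (5.10 and 5.70, then 6.50 and 6.74) and Spred2 (6.47 and 6.78, then 6.95 and 6.99) were higher in both. At Spry2 that summit lay in a region centered 0.9 kb upstream of the TSS. The region holding the Spry2 TSS itself overlapped between groups (4.68 and 4.04, then 4.12 and 4.34). Of all protein-coding genes with a promoter summit in all 4 libraries, 19.7% were lower and 20.9% higher by the same rule, so that 1 and 2 of 8 were near what any gene showed. The other 5 promoters overlapped between groups. Spry4 had 7.83 and 9.09, then 9.02 and 9.29. Etv4 had 11.8 and 11.6, then 13.2 and 11.6, at the strongest of its promoter summits. A weaker region at an internal Etv4 TSS, described below, had 6.85 and 6.06, then 2.88 and no row. Etv5 had 8.47 and 9.31, then 10.1 and 9.05. Averaged over the 8 genes, the fold enrichment was 7.67 and 8.23 in the controls and 8.4 and 8.08 after C59 treatment (difference 0.29, exact permutation test, p = 0.667).

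Fold enrichment is relative to the coverage that the caller expected at the same place, and this matters most for Dusp6. Its promoter fold enrichment of 3.45 and 3.21 in the controls and 3.24 and 2.91 after C59 treatment stood at percentile 0.51 of genes with a promoter summit. Yet 177 and 177 fragments covered the summit in the controls, where 50.5 and 54.5 were expected. At Spry1, 92 and 109 fragments covered it, where 9.53 and 10.6 were expected. The Dusp6 values also depend on the limit of 1 kb from a TSS. The acetylated region centered 1.1 kb upstream of Dusp6 had a stronger summit beyond this limit. Its fold enrichment was 5.35 and 5.45 in the controls and 5.90 and 5.49 after C59 treatment, higher in both C59 libraries. In the second C59 library the Dusp6 promoter summit lay 357 bp downstream of the TSS, and in the other libraries upstream of it. Divided by the genome background of its library, an alternative chosen after the data were seen, the coverage at Dusp6 was 65.8 and 61.4 in the controls and 65.6 and 54.4 after C59 treatment. This placed it at percentile 85.7 of the 9744 genes for which coverage could be computed, which leaves out the most significant rows. On this scale Spry1 (34.2 and 37.8, then 30.9 and 28.2), Etv4 (55.0 and 56.2, then 49.5 and 35.6) and Etv5 (48.3 and 55.5, then 47.0 and 41.0) were lower in both C59 libraries, and Spry2 (58.0 and 63.1, then 71.9 and 69.6) was higher. The median gene moved by −0.13 on the log2 scale, and 39.2% of genes were lower and 9.79% higher. Spry1 and Spry2 thus kept their direction on both scales, whereas Etv4 and Etv5 were lower on the coverage scale and overlapped on the fold scale. Both scales use the fragments at the same summit, which at Spry2 lay upstream of the region holding the TSS. The fold enrichment of that TSS region overlapped between groups. Spred2, higher on the fold scale, overlapped on the coverage scale (72.5 and 73.5, then 75.6 and 69.9).

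**Figure D4:**
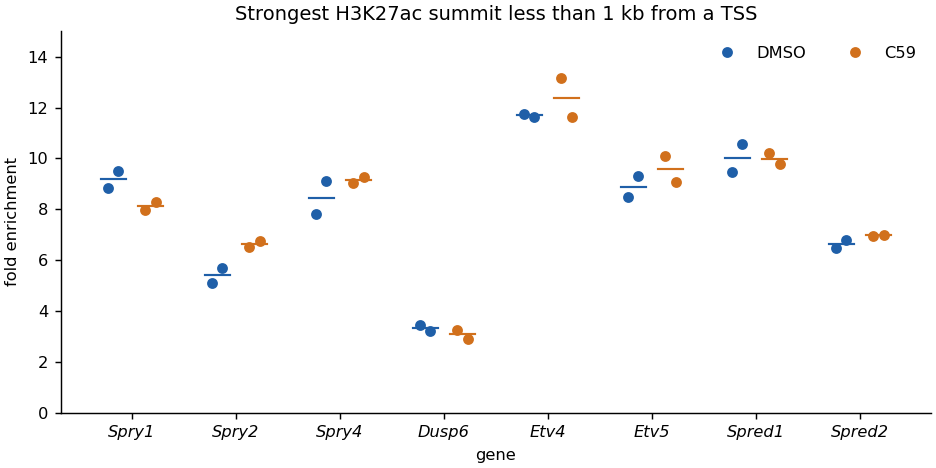
Fold enrichment (vertical axis) of the strongest H3K27ac summit less than 1 kb from a TSS of each gene in each replicate library (points), with the group mean (line), in DMSO controls and after C59 treatment. Values range from 2.91 at Dusp6 to 13.2 at Etv4, and Spry1 is lower and Spry2 and Spred2 are higher in both C59 libraries.

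Single acetylated regions, at promoters and away from them, differed in both directions. Merging the 4 H3K27ac libraries gave 72 regions at the 8 landscapes, of which 38 were listed in all 4. Of these 38, 4 had a lower fold enrichment in both C59 libraries and 10 (26.3%) a higher one, beside 19.4% and 20.9% of 17475 regions across the genome. The Spry1 promoter was among the 4, and the Spred2 promoter and the regions at the TSSs of the neighbors Fam98b and Actr2 were among the 10. The median change was 0.02 on the log2 scale, beside 0.00 for all. The largest increase among them was at the Spry4 element 30.3 kb upstream, which also carried β-catenin in the controls (10.8 and 9.20, then 13.8 and 12.7, log2 0.41). The Spry2 element 24.0 kb upstream, under the strongest β-catenin summit of that gene, had 7.61 and 7.92 in the controls and 9.74 and 8.45 after C59 treatment. The acetylated region around the strongest Dusp6 summit, 35.9 kb downstream, had 7.88 and 5.99 in the controls and 6.87 and 7.04 after C59 treatment, so that its groups overlapped. The lowest change was −0.24, at a region 96.4 kb upstream of Etv4 (6.62 and 6.67, then 5.81 and 5.42).

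**Figure D5:**
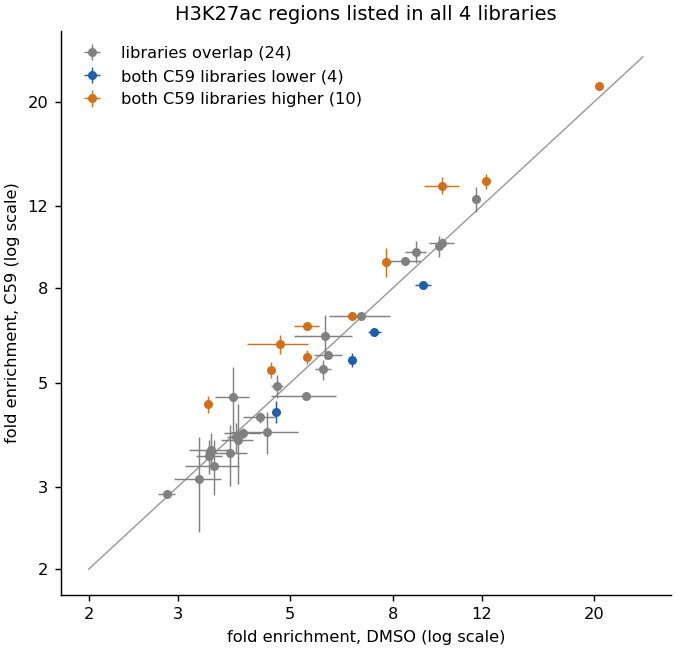
Mean H3K27ac fold enrichment of the 38 regions listed in all 4 libraries in DMSO controls (horizontal axis) and after C59 treatment (vertical axis), on log scales, with bars from the lower to the higher replicate and a line of equal values. Both C59 libraries were lower at 4 regions and higher at 10, and the groups overlapped at the other 24.

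At Etv4, less H3K27ac was listed after C59 treatment at an internal promoter of the gene, next to the strongest β-catenin summit. The region chr11:101771903-101772504 had a fold enrichment of 6.85 and 6.06 in the controls and 2.88 in the first C59 library, and was not listed in the second. Its control consensus region ended 204 bp from the β-catenin summit of 15.2. Regions listed in both control libraries and in no C59 library numbered 2 of 72, beside 3.03% of all merged regions. They lay 53.2 kb upstream of Spry1 (5.00 and 4.12), 89 bp from a β-catenin summit of 6.60, and 84.9 kb upstream of Etv4 (4.09 and 3.07). None of the 72 was listed in both C59 libraries and in no control library, beside 2.15% of all. A region 58.9 kb downstream of Spry4 had 4.83 and 4.69 in the controls, 3.12 in the first C59 library and no row in the second.

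Further genes of the same pathway were compared through lists of known FGF feedback genes and of the cascade. Of the 17 feedback and target genes, 16 were found among the protein-coding genes of the annotation. The median was 2 consensus summits, beside 6 for the 8 genes above and 1 for all genes. Il17rd, a membrane inhibitor of FGF signaling, had the most, with 10 and 10 summits in the controls and 8 in the consensus list. It was followed by Flrt2, Flrt3 and Ier2 with 4 consensus summits each, and Dusp9 and Spred3 had none. Counts were lower after C59 treatment for 14 of the 16, beside 82.9% of all genes with a β-catenin summit. Flrt2 was the only one with C59 summits (4 and 4, then 1 and 1). Of the 15 cascade genes, 13 had a β-catenin summit in any library and all 13 were lower, beside the same 82.9%, with a median of 1 consensus summit for the list. Rps6ka1, an ERK-activated kinase, had the most (5), and genes such as Frs2, Grb2, Map2k2, Ptpn11 and Sos1 had none in the consensus list. H3K27ac counts were lower for 1 of 16 feedback genes (Flrt3, 5 and 7, then 4 and 4). They were lower for 3 of 15 cascade genes (Frs2, Grb2, Hras) and higher for 1 (Map2k2, 15 and 16, then 18 and 18). Among all genes with an H3K27ac summit 14.3% were lower and 5.72% higher, so that nothing particular to these lists is read from the counts.

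The genes whose profile of summed fold enrichment over the 8 libraries was nearest to the median of the 8 genes were Mesd and Tlnrd1, which share a window (distance 0.16 on the log2 scale), Hnrnpa3 and Tor1b (0.20 each) and Clic4 (0.23). The 8 genes themselves lay at distances of 0.57 (Spry1) to 5.59 (Spred1).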

How the data were processed

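β-Catenin and H3K27ac ChIP-seq libraries of forelimb buds were compared, with 2 replicates per antibody and treatment. The 4 input samples were not analysed here. The authors mapped reads to mm10 with Bowtie2 2.4.5 and called peaks with MACS2 2.2.7.1 without input (trimming: cutadapt 4.1, per the submitters' processing notes). The authors' consensus lists came from a joint call on both replicates, deduplicated and sampled to equal size, limited to summits that both single calls supported. The deposited fold enrichment is the ratio of the coverage at a summit to the coverage the caller expected at that place. A small constant (pseudocount) is added to both before dividing, so that it is not the plain ratio of the fragment numbers given above. The deposited −log10 p and −log10 q values come from the same Poisson test.

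Coverage, expected coverage and depth were recomputed from each row's fold and p-value, and 100% of the replicate rows tried were solved to within a tolerance of 0.01. Rows with a −log10 p over 250 were not tried. Gene bodies and TSSs came from GENCODE M21 and RefSeq (GRCm38), whose chromosomes contain every peak. No blacklist was applied here, although the authors applied one to β-catenin summits.

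Libraries were compared by the exact two-sided permutation test, and over all protein-coding genes or regions by whether both C59 values lay beyond both control values. Intervals are 95% Wilson intervals. Scripts ran in Python 3.11.15 with scipy 1.17.1 and pysam 0.24.0 and were tested on simulated data. The named features were the strongest summit and the promoter summits of each member, the list members with the most and fewest summits, the regions with extreme changes, and the 5 genes nearest in profile. The regions near Etv4, Spry1, Spry2 and Spry4 that are described by their loss or gain were chosen after their values were seen. The 8 members, the gene lists and the tests were chosen with earlier results of these data known. Alternatives were other windows, row filters, TSS limits, motif windows, single lists, leaving out each library, and the replicate number as a block. The numbers of the replicates do not mark shared animals, and over 17475 H3K27ac regions the deviations of same-numbered libraries correlated with r = 0.01.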

Additional observations from a re-analysis of the deposited data

How the results depend on the processing

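Of 77 alternative values, 60 kept their direction, or stayed within the interval, the replicate spread or 1.5 times the count. The loss of β-catenin summits kept its direction in all 14 alternatives. As a count it ran from −10.0 (gene bodies only) to −84.0 (windows of 200 kb), and from −47.5 to −51.5 without 1 library. As a share of the list it was −7.01 per 10000 summits, where the groups overlapped (exact permutation test, p = 1.0). Genes with lower β-catenin counts were 3 with gene bodies only and 7 or 8 otherwise, Spred1 joining with windows of 200 kb, with the nearest protein-coding TSS and without DMSO replicate 2. With gene bodies only, the median percentile of β-catenin density was 41.9, and it was 96.0 and 94.0 with the summits of DMSO replicates 1 and 2. The difference in H3K27ac counts changed in sign with the setting. It was −3.0 with windows of 200 kb, 0.0 with gene bodies only and −0.5 with a fold of at least 5. It was 6.5 with the nearest protein-coding TSS, 6.0 with a −log10 q of at least 3 and 3.0 with windows of 50 kb, and in these 3 the C59 libraries lay above both controls. It ran from 0.0 (without DMSO replicate 1) to 6.0 (without DMSO replicate 2) when 1 library was left out. Genes without overlap in H3K27ac counts were 5 with windows of 200 kb and with a −log10 q of at least 3, 1 (Dusp6) with a fold of at least 5 and 1 (Spry2) with distinct regions. They were 4 to 6 without 1 library. The promoter difference was −0.83 with folds summed and −4.43 with coverage over background. With H3K27ac peaks extended by 1 kb, 73.2% of the β-catenin summits lay inside one. With the replicate number as a block, the differences were the same by construction (−49.5 for β-catenin, p = 0.5, and 3.0 for H3K27ac, p = 1.0, exact sign-flip tests). The calls per gene were not run with this block. The causes of these changes were not tested. With 2 libraries per group no test could pass 0.05, and the C59 β-catenin lists held no row below 4.24-fold where the expected coverage was the genome background, beside 3.19-fold in DMSO replicate 2 at a similar depth (3.39 Gb, beside 3.40 and 3.42).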

Other observations

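Control H3K27ac regions of the 8 landscapes without a C59 counterpart were also counted by their distance to β-catenin, a comparison chosen after the values were seen. Of 27 control consensus regions within 1 kb of a β-catenin summit, 4 (14.8%, 5.92 to 32.5) had no overlapping C59 region, and of 17 farther away 4 did (23.5%, 9.56 to 47.3). Across the genome the shares were 13.2% of 5016 regions and 12.9% of 14950. Of the 72 merged regions at the landscapes, 50% lay within 1 kb of a control β-catenin summit, beside 23.1% of 34047 merged regions.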
